A study of Homo sapiens with 2 samples.

Results

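The 40 genes described here encode RNA polymerase I subunits, the factors that start transcription of ribosomal DNA, and proteins that modify, cut and assemble ribosomal RNA in the nucleolus. They were a list of symbols, matched exactly to the gene names of the deposited table, and all 40 were found among 21115 genes. The rule uses no measured value. By role they divide into 5 RNA polymerase I subunits, 6 initiation factors, 3 abundant nucleolar proteins, 6 proteins of small nucleolar ribonucleoproteins (snoRNPs) and rRNA modification, 10 small subunit assembly factors and 10 large subunit assembly factors.

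Messenger RNA was sequenced with a stranded kit from HCT116, an established human colorectal carcinoma line grown in serum-containing medium. Cells received either 1 µM CB-5083, an inhibitor of the ATPase p97 (VCP), or the solvent DMSO for 8 h. There was 1 library per treatment, so the differences below carry no replicate check and no test between treatments was possible. The comparison asks how transcript levels stand after p97 inhibition.

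RNA polymerase I transcribes a single kind of gene, the tandem repeats of ribosomal DNA. UBTF coats these repeats, the selectivity factor SL1 (TBP with TAF1A, TAF1B, TAF1C and TAF1D) recognises their promoter, and RRN3 brings the polymerase to it. The long precursor RNA is then methylated and pseudouridylated at sites chosen by small nucleolar RNAs, folded by the small subunit processome and by large subunit complexes, and cut into the mature rRNAs. Rapidly dividing cancer cells, colorectal carcinoma cells among them, depend on a high output of this pathway.

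Depth was 29273500 estimated counts for DMSO and 31997500 for CB-5083, to 6 digits. The epithelial genes EPCAM, KRT8, KRT18 and CDH1 ranged from 66.7 to 433 CPM (counts scaled to a fixed library total) with DMSO. Of the colon differentiation markers, CDX1 was at 0 in both libraries, VIL1 was at 0.03 CPM with DMSO and at 0 with CB-5083, CDX2 was at 3.76 and 2.92 CPM, and KRT20 at 1.37 and 1.02 CPM. Among fibroblast, leukocyte, endothelial and neuronal markers, MAP2 was the only one above 5 CPM, at 9.25 and 19.7 CPM. DDIT3, a stress-induced transcription factor gene, was at 6.16 CPM under DMSO and 351 CPM under CB-5083, and VCP was at 148 and 269 CPM.

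Most of the 40 genes differed little between the libraries. The log2 ratio used here divides the CB-5083 level by the DMSO level, each in CPM with 1 added, after TMM scaling, which sets the 2 libraries on a common scale from the bulk of their genes. A gene counted as higher or lower at 2-fold on this scale, with at least 5 CPM in 1 library, and a size of 1.5-fold was counted as well. All 40 genes passed the 5 CPM filter. At 2-fold, 1 gene was higher (RRP12), 1 was lower (UBTF) and 38 were neither, against 7.22% higher and 4.91% lower among the 9543 genes that passed the filter. At 1.5-fold, 5 were higher (RRP12, TAF1A, TAF1D, DKC1 and DDX21), 1 was lower (UBTF) and 34 were neither, against 17.4% higher and 12.5% lower among all genes that passed. The 5 higher genes are 12.5% of the list and the 1 lower gene 2.5%, smaller shares than among the genes at large. With a 20 CPM filter, 5 and 1 of 37 members were called, against 20.4% and 7.81% of all genes. So few genes were called that no more is read from these shares, and their difference was not tested. In RNA from a whole culture, fewer cells of a kind and less RNA per cell cannot be told apart.

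The median log2 ratio of the 40 genes was 0.23, beside 0.04 over the 11964 genes with a mean of at least 1 CPM, and 31 of the 40 lay above that all-gene median. The middle 50% of the list spanned 0.32 on the log2 scale, against 0.73 for all genes. The all-gene set reaches down to a mean of 1 CPM, whereas each of the 40 genes had 143 counts or more in each library. The part of level in this contrast was not tested. When libraries were scaled by their totals, the all-gene median shifted by -0.31 and the list's median became -0.089, so directions of small differences depend on the scaling. The list's distance above the all-gene median, 0.20, was 0.19 by library totals and 0.21 from the authors' deposited table. That distance could hardly move, because a change of scaling adds nearly the same amount to every log2 ratio. The split of 2-fold calls among all genes did move, from 59.5% higher with TMM to 27.2% by library totals and 46.8% from the authors' deposited table.

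**Figure D1:**
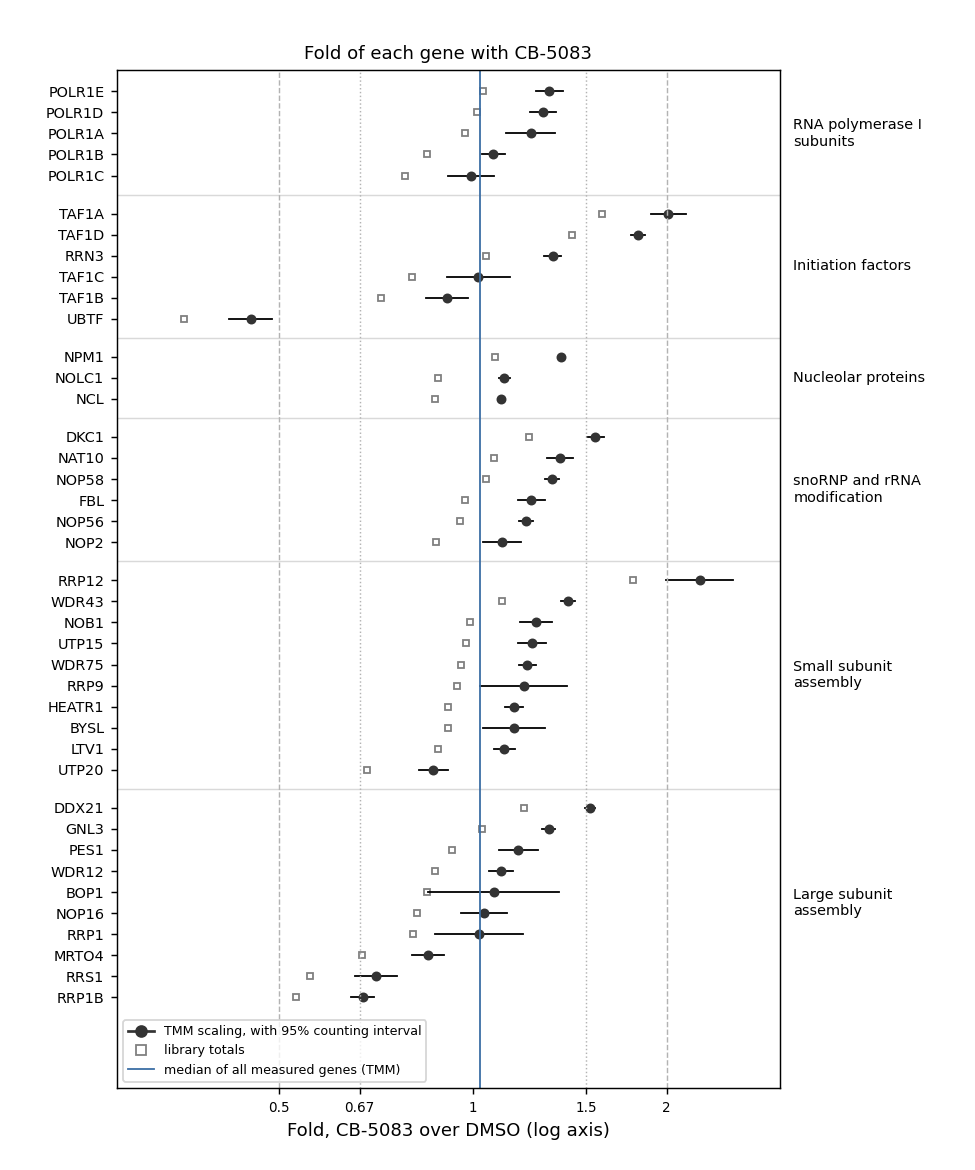
Fold of each of the 40 genes, CB-5083 over DMSO, on a log axis by role. Filled circles use TMM scaling with a 95% exact counting interval, open squares use library totals, the blue line is the median of all measured genes, and dashed and dotted lines mark 2-fold and 1.5-fold. UBTF stands alone on the left at 0.45, RRP12 and TAF1A lie furthest right at 2.25 and 2.01, and most other genes lie between 0.8 and 1.4. Folds are plotted without the added 1 CPM.

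Promoter sequences are shown first for a feature that the list's rule did not use. The E-box is a short palindromic DNA motif bound by basic helix-loop-helix leucine zipper factors such as MYC with MAX, and genes of ribosome production are known as MYC targets. RefSeq promoter windows (GRCh38.p14, 250 bases before to 50 after a start position) matched 33 of the 40 genes. That position was the gene's annotated start for 28 of the 33 and another base for 5. BOP1, NOLC1, NOP58, POLR1E, RRP1B, RRP12 and RRS1 were not matched. The letters CACGTG, which read the same on both strands, were in 10 of the 33 windows (30.3%), in 7.26% of all 35116 windows and in 8.88% of the 15842 windows of protein-coding genes. All 10 matches started between 15 bases before and 35 bases after the window's start position, whereas 36.6% of the 1590 matches in protein-coding windows lay within 50 bases of it. The 30 bases around each match are given 5′ to 3′ on the gene's strand, with the motif in capitals. These windows were picked for the motif, and 23 of the 33 matched windows lacked it.
FBL (chr19:39846356-39846385, minus strand): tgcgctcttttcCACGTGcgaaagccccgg
NAT10 (chr11:34105602-34105631, plus strand): aatgcgcttgcgCACGTGctgtctaccagt
NOP2 (chr12:6568242-6568271, minus strand): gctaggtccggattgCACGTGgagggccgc
WDR43 (chr2:28894658-28894687, plus strand): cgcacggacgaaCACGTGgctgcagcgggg
UTP20 (chr12:101280083-101280112, plus strand): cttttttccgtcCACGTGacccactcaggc
RRP9 (chr3:51941892-51941921, minus strand): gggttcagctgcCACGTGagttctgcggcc
BYSL (chr6:41921515-41921544, plus strand): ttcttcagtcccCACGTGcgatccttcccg
LTV1 (chr6:143843354-143843383, plus strand): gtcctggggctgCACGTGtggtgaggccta
PES1 (chr22:30591880-30591909, minus strand): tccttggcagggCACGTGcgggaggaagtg
MRTO4 (chr1:19251807-19251836, plus strand): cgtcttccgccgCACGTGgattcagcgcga

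These 10 genes belong to rRNA modification, small subunit assembly and large subunit assembly, and no matched gene of the polymerase, of the initiation factors or of the abundant nucleolar proteins had the motif in its window. Those 3 roles are small beside a share of 8.88% in protein-coding windows, and POLR1E and NOLC1 had no window. A difference between roles was not tested. The 10 genes with the motif had a median log2 ratio of 0.22, from -0.23 for MRTO4 to 0.49 for WDR43. The 23 matched genes without the motif had a median of 0.28, from -1.12 to 0.99. UBTF and TAF1A, the lowest and the highest ratio among the 33 matched genes, were without it, and RRP12 had no window to search. MYC itself was at 198 CPM under DMSO and 268 CPM under CB-5083 (1.35-fold).

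The 5 RNA polymerase I subunits on the list had similar ratios. POLR1A, the largest subunit, was at 30.3 CPM under DMSO and 37.2 CPM under CB-5083, a fold of 1.23 (95% counting interval 1.13 to 1.34). POLR1B, which forms the active site together with POLR1A, was at 145 and 156 CPM (1.08-fold, 1.03 to 1.12). POLR1E, an initiation and elongation subunit, was at 92.2 and 121 CPM (1.31-fold, 1.25 to 1.38). Both subunits shared with RNA polymerase III diverged slightly, since POLR1D was at 105 and 134 CPM (1.28-fold, 1.23 to 1.35) and POLR1C at 37.9 and 37.7 CPM (0.99-fold, 0.91 to 1.08). None of the 5 passed 1.5-fold, and their log2 ratios ran from -0.01 to 0.39.

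Initiation factors held the widest range of any role, 2.12 on the log2 scale between the highest and the lowest of 6 genes. UBTF (chromosome 17, 42282401 to 42298994, hg19 as for the other coordinates of the files) was at 70.5 CPM under DMSO and 31.8 CPM under CB-5083, 2.21-fold lower (2.05 to 2.39), and 3.79% of measured genes had a ratio as low or lower. Its log2 ratio of -1.12 was -1.46 by library totals and -1.24 from the authors' deposited table. RRN3, which ties the polymerase to the promoter, was at 216 and 287 CPM (1.33-fold, 1.29 to 1.37), although annotated pseudogene copies share its sequence and leave its value uncertain. Within each library, RRN3 had 3.06 estimated counts per UBTF count with DMSO and 9.02 with CB-5083.

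The subunits of SL1 fell into separate levels. TAF1A, on chromosome 1 from 222731244 to 222763275, was at 47.9 CPM under DMSO and 96.3 CPM under CB-5083. Its plain fold was 2.01 (1.89 to 2.14), while its log2 ratio with 1 CPM added was 0.99, just short of the threshold. TAF1D, on chromosome 11 from 93463447 to 93474703, was at 289 and 522 CPM (1.81-fold, 1.76 to 1.85), and its log2 ratio of 0.85 was 0.51 with library totals, below 1.5-fold. By contrast TAF1B, the subunit related to TFIIB, was at 46.8 and 42.6 CPM (0.91-fold, 0.84 to 0.98), and TAF1C was at 20.1 and 20.5 CPM (1.02-fold, 0.91 to 1.14). TBP, which SL1 shares with the general transcription machinery, was at 32.7 and 40.5 CPM (1.24-fold). A comparison within a library does not depend on the scaling between libraries: the ratio of TAF1A to UBTF counts went from 0.68 with DMSO to 3.03 with CB-5083, a 4.45-fold difference (4.03 to 4.91, log-scale interval from counting error only). That pair was taken because it holds the extremes of its role.

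**Figure D2:**
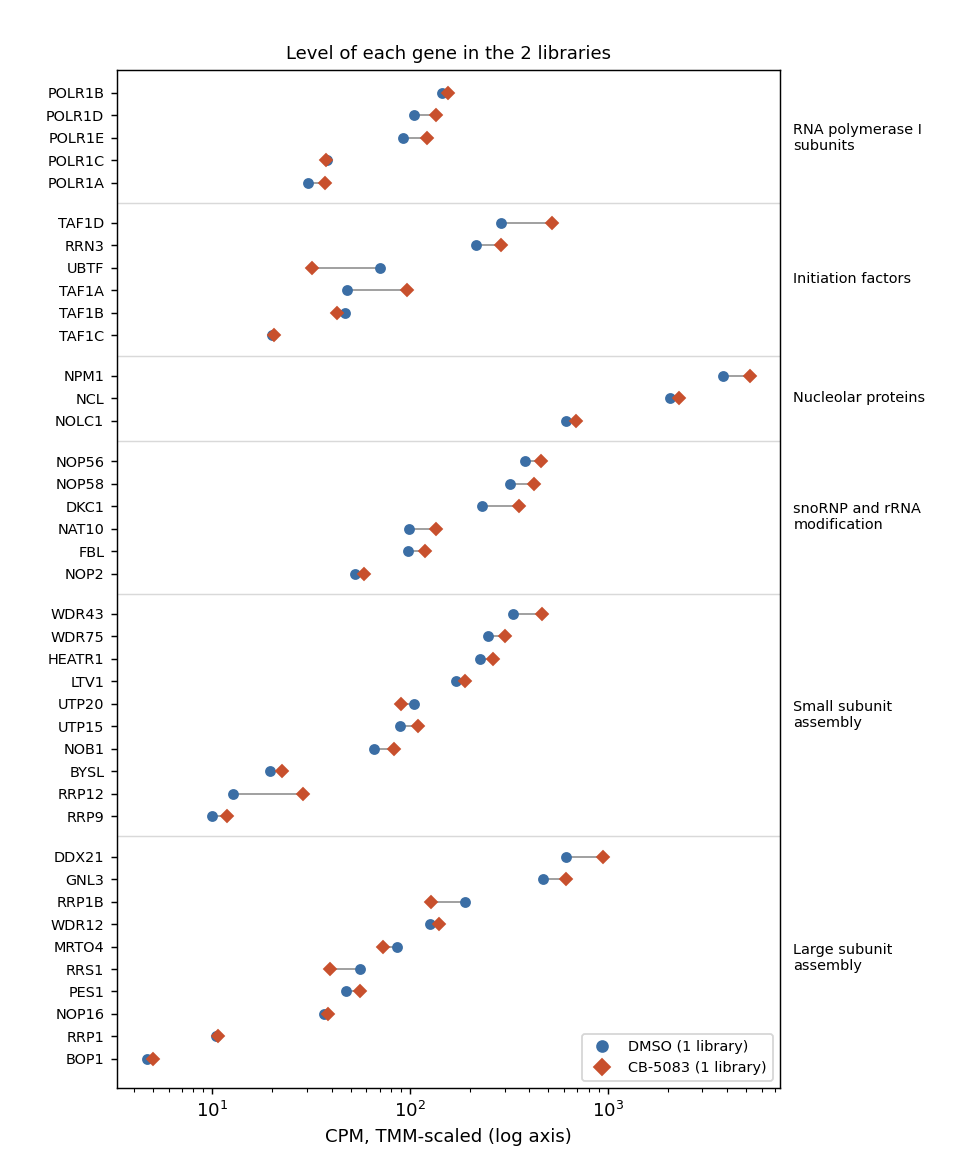
Level of each of the 40 genes in CPM (TMM-scaled, log axis), with circles for the DMSO library and diamonds for the CB-5083 library, by role. NPM1 and NCL lie at the top of the range, BOP1 at the bottom near 5 CPM, and the longest lines belong to UBTF, TAF1A, TAF1D and RRP12.

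The 3 abundant nucleolar proteins had high levels in both libraries. NPM1, nucleophosmin, which organises the outer nucleolus, was at 3799 CPM under DMSO and 5213 CPM under CB-5083 (1.37-fold, 1.36 to 1.38). Reads from its 45 annotated pseudogenes could not be separated from its own here, so its value is uncertain. NCL, nucleolin, was at 2057 and 2277 CPM (1.11-fold, 1.09 to 1.12). NOLC1, a phosphoprotein that escorts snoRNPs, was at 614 and 688 CPM (1.12-fold, 1.10 to 1.14). Per kb of transcript NPM1 was the highest of the 40 genes, at 2481 CPM per kb with DMSO, followed by NCL at 510 and GNL3 at 230, and BOP1 was the lowest at 2.03. The first 3 and the last kept these places with CB-5083.

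The 6 genes of snoRNPs and rRNA modification all lay above the all-gene median, with a median log2 ratio of 0.35 (0.01 with library totals). DKC1, the pseudouridine synthase of box H/ACA snoRNPs, was the highest, at 230 CPM under DMSO and 356 CPM under CB-5083 (1.55-fold, 1.503 to 1.60). Its log2 ratio of 0.63 was 0.29 by library totals and 0.54 from the authors' deposited table, both below 1.5-fold. Of the box C/D proteins, NOP58 was at 318 and 423 CPM (1.33-fold), NOP56 at 379 and 458 CPM (1.21-fold), and the methyltransferase FBL at 96.9 and 119 CPM (1.23-fold). NAT10, which acetylates cytidines in rRNA, was at 98.7 and 135 CPM (1.37-fold), and NOP2, an rRNA cytosine methyltransferase, at 52.6 and 58.4 CPM (1.11-fold).

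Small subunit assembly factors included the gene with the highest ratio. RRP12, needed for export and maturation of the precursor subunit, lies on chromosome 10 from 99116458 to 99161127. It was at 12.7 CPM under DMSO and 28.5 CPM under CB-5083, 2.25-fold higher (1.997 to 2.54), from 418 estimated counts in the DMSO library. Its log2 ratio of 1.11 was 0.79 with library totals and 0.92 with a pseudocount of 5 CPM, both below the 2-fold threshold.

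Among the proteins that bind the nascent precursor, WDR43 was at 332 and 466 CPM (1.40-fold, 1.37 to 1.44). The rest of this group lay closer to the middle: UTP15 at 88.9 and 110 CPM (1.23-fold), WDR75 at 248 and 302 CPM (1.22-fold) and HEATR1 at 225 and 261 CPM (1.16-fold). UTP20, a very large processome protein, was the only one of the 10 small subunit factors with a log2 ratio below 0 under TMM, at 104 CPM under DMSO and 90.2 CPM under CB-5083 (0.87-fold, 0.82 to 0.91). RRP9, which binds the U3 snoRNA, was at 9.89 and 11.9 CPM (1.199-fold, 1.026 to 1.40). Of the late factors, NOB1, the nuclease that makes the final cut of the small subunit rRNA, was at 65.8 and 82.4 CPM (1.25-fold). LTV1 was at 169 and 190 CPM (1.12-fold), and BYSL at 19.5 and 22.6 CPM (1.16-fold).

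Large subunit assembly factors had the lowest median of the roles, 0.07, close to the all-gene median, with genes well to both sides of it. DDX21, an RNA helicase that acts in rRNA transcription and processing, was at 616 CPM under DMSO and 938 CPM under CB-5083 (1.52-fold, 1.49 to 1.55). That put it just past 1.5-fold with TMM, while its log2 ratio of 0.60 was 0.26 by library totals and 0.51 from the authors' deposited table. GNL3, the nucleolar GTPase nucleostemin, was at 469 and 615 CPM (1.31-fold, 1.28 to 1.34).

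RRP1B and RRS1 were at the other end. RRP1B, a nucleolar protein that binds a protein phosphatase, was at 188 CPM under DMSO and 127 CPM under CB-5083, 1.48-fold lower (1.42 to 1.55). RRS1, which helps to build the ribonucleoprotein of the smallest rRNA into the large subunit, was at 55.6 and 39.3 CPM, 1.41-fold lower (1.31 to 1.53). Both were short of 1.5-fold with TMM and with median-of-ratios scaling, the latter with log2 ratios of -0.55 and -0.48. They were past it with -0.90 and -0.82 by library totals and with -0.66 and -0.59 in the authors' deposited table. RRP1, the paralog and neighbour of RRP1B on chromosome 21 (45209418 to 45223983, against 45079432 to 45115960), was at 10.4 and 10.7 CPM (1.02-fold, 0.87 to 1.195). Within a library there were 0.055 RRP1 counts per RRP1B count with DMSO and 0.084 with CB-5083, a 1.52-fold difference (1.29 to 1.78), so the pair did not move in parallel between these 2 libraries.

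The PES1, BOP1 and WDR12 proteins form one complex, and their genes lay near each other in ratio. PES1 was at 47.3 and 55.6 CPM (1.18-fold, 1.10 to 1.26), WDR12 at 126 and 140 CPM (1.11-fold, 1.06 to 1.16) and BOP1 at 4.67 and 5.03 CPM (1.08-fold, 0.85 to 1.36). BOP1 had the fewest counts of the 40 genes, 154 with DMSO, and a difference of this size was not detectable at that depth. NOP16 was at 36.7 and 38.2 CPM (1.04-fold, 0.96 to 1.13). MRTO4, a placeholder for a stalk protein of the large subunit, was at 85.7 and 73.1 CPM (0.85-fold, 0.81 to 0.90). The counting interval held 1 for 5 of the 40 genes, POLR1C, TAF1C, BOP1, NOP16 and RRP1.

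Several of these genes hold annotated snoRNA genes inside their span, so a single transcript can give an assembly factor and the guide RNAs that work with it. Exons and introns were not told apart here. In the GENCODE 29 annotation, 8 of the 40 genes held 32 snoRNA genes on their own strand, with 8 in TAF1D, 6 in GNL3, 5 in NOP56, 4 in NOP58, 3 each in NCL and WDR43, 2 in DKC1 and 1 in POLR1C. These 8 had a median log2 ratio of 0.40, from -0.01 for POLR1C to 0.85 for TAF1D, and 7 of them lay above the all-gene median. The other 32 had a median of 0.21 and ranged from -1.12 to 1.11. Host genes were also more abundant, with a median of 325 CPM against 87.3 CPM with DMSO, and the part of abundance in the difference was not tested.

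Other genes of the pathway were read from lists drawn up beside the 40. The 7 further measured RNA polymerase I genes had a median log2 ratio of -0.06, and 6 of them passed the filter. At 1.5-fold none was higher and 2 (33.3%) were lower, against 17.4% and 12.5% of all genes. By library totals 3 were lower, against 26.0% of all genes. POLR1G, a polymerase I subunit named CD3EAP in the files, was at 24.3 CPM under DMSO and 11.8 CPM under CB-5083, 2.07-fold lower (1.82 to 2.35), with a log2 ratio of -0.99. TTF1, which terminates rDNA transcription, was at 38.9 and 25.5 CPM, 1.53-fold lower (1.39 to 1.67). The subunits POLR1F and POLR1H were at 121 and 93.9 CPM and at 11.1 and 15.6 CPM. All 5 subunits shared by RNA polymerases I, II and III had log2 ratios below the all-gene median, from -0.60 to -0.20, and 1 of them, POLR2E (13.4 and 8.55 CPM, 1.57-fold lower), was past 1.5-fold. POLR2L, at 5.04 and 3.03 CPM, had a plain fold of 1.66 lower (1.28 to 2.19) and missed the call only through the added 1 CPM. Of all genes, 12.5% were lower at 1.5-fold. The count was 2 with a pseudocount of 0.1 CPM and by the authors' deposited table, against 13.7% and 16.4% of all genes. By library totals it was 3, against 26.0%. It was 0 with a pseudocount of 5 CPM, against 8.32%, and with a 20 CPM filter, against 7.81%. That filter leaves out POLR2E, POLR2F and POLR2L, which lie below it in both libraries. The polymerase I genes spanned from UBTF and POLR1G at the low end to TAF1A and TAF1D at the high end.

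RNA polymerase III makes the smallest rRNA and the tRNAs. Of 21 of its genes that passed the filter, 3 (14.3%) were higher at 1.5-fold, near the 17.4% of all genes. By library totals 1 was higher, against 8.34% of all genes. The list's median log2 ratio with TMM was 0.08. POLR3C was the only one past 2-fold, at 24.6 CPM under DMSO and 65.3 CPM under CB-5083 (2.66-fold, 2.45 to 2.89). Among RNA polymerase II subunits other than the 5 shared ones, 7 passed the filter. Of these, 1 (14.3%) was higher at 1.5-fold, POLR2M, at 106 and 168 CPM, and none was lower. By library totals 0 were higher and 1 was lower, against 8.34% and 26.0% of all genes.

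Assembly factors outside the list had nearly the same median as the 40 genes when pooled, but not role by role. Other small subunit, large subunit and snoRNP factors came to 115 measured genes with a median log2 ratio of 0.23, and 109 passed the filter, of which 14 were higher (12.8%) and 1 lower (0.92%) at 1.5-fold. Among all genes that passed, 17.4% were higher and 12.5% lower. By library totals 4 were higher and 10 lower on these lists, against 8.34% and 26.0% of all genes. The authors' deposited table gave 9 and 2, against 14.9% and 16.4%. The 54 other large subunit factors had a median of 0.27, against 0.07 for the 10 on the list, and the 47 other small subunit factors had 0.16, against 0.26. RIOK3, a kinase bound to small subunit precursors, was at 76.3 CPM under DMSO and 258 CPM under CB-5083 (3.38-fold, 3.23 to 3.53). RSL24D1, which holds the place of a large subunit protein, was at 356 and 801 CPM (2.25-fold, 2.20 to 2.30). SBDS, which releases an anti-association factor from the large subunit, was at 127 and 279 CPM (2.19-fold, 2.11 to 2.28). ZNHIT6, which helps to assemble box C/D snoRNPs, was at 67.8 and 144 CPM (2.12-fold, 2.01 to 2.23). These 4 were the only genes of the 109 past 2-fold with TMM (1 gene by library totals), and DDX51, a helicase at 16.6 and 10.04 CPM, was the only one lower at 1.5-fold with TMM.

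The nuclear exosome and related exonucleases trim rRNA ends, and 15 of these genes passed the filter. At 1.5-fold 3 (20%) were higher and 12 neither, against 17.4% higher and 12.5% lower among all genes. Their median log2 ratio was 0.07. By library totals 0 were higher and 1 was lower, against 8.34% and 26.0% of all genes. DIS3, a catalytic exosome subunit, was at 199 and 339 CPM (1.70-fold, 1.65 to 1.76). Cytosolic ribosomal protein genes, whose products the assembly factors place on rRNA, were tighter and higher than the 40 genes. Of 79 measured, 12 (15.2%) were higher and none lower at 1.5-fold, against the same 17.4% and 12.5% of all genes. Of the 79, 77 lay above the all-gene median, and the list's median was 0.45. By library totals none was past 1.5-fold and the median was 0.10. The authors' deposited table gave 5 higher, against 14.9% of all genes. Near-identical processed copies leave the values of single ribosomal protein genes uncertain. With 1 library per treatment, the distance between that median and the 0.23 of the 40 genes has no test.

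**Figure D3:**
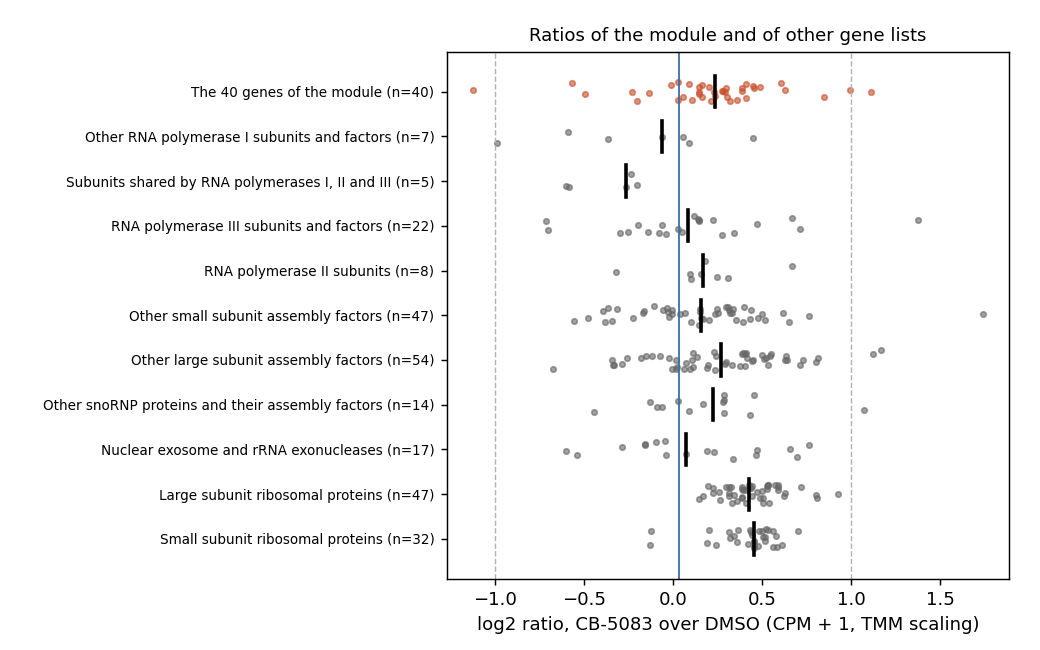
Log2 ratio of each measured gene, CB-5083 over DMSO (CPM + 1, TMM scaling), for the 40 genes and 10 other lists, with a black bar at each list's median, a blue line at the all-gene median and dashed lines at 2-fold. Ribosomal protein genes cluster around 0.45, the shared polymerase subunits all lie left of the blue line, and the 40 genes spread from -1.12 to 1.11 around 0.23.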

How the data were processed

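Per the submitters' processing notes, RSEM 1.2.0 and the genome build hg19 were used. No aligner or strand setting for the counting is given in the sources used here. What the authors deposited was a signal per gene, estimated counts scaled within each library to a 75th percentile near 1000 (999.73 and 999.89), and a log2 ratio of the 2 columns without a pseudocount. Dividing by the smallest common step (1.079 with DMSO, 1.175 with CB-5083) gave back estimated counts, of which 78.0% and 78.3% of values up to 5 were whole within 0.02.

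CPM (counts per 1000000) were computed with TMM factors of 1.126 (DMSO) and 0.888 (CB-5083), trimmed by 30% on ratios and 5% on means. Fold intervals are 95% Clopper-Pearson intervals from the rounded estimated counts, and cover counting error only. A list's median was taken over members with a mean of at least 1 CPM. Transcript lengths came from GENCODE 29 through RefSeq accessions, on a later build than the files, and were used for levels per kb only. Coordinates in hg19 are those of the files, with starts counted from 1 and all transcripts of a row joined. In GENCODE 29, 12 of the 40 genes overlap a coding gene on the opposite strand, 3 overlap one on the same strand, and 6 have named pseudogenes, so reads may have been split or shared there.

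The 40 members, the lists and the thresholds were chosen with earlier results of these data known. All 40 members are named. Of the other lists, up to 4 genes with the largest ratio by size and the most expressed per kb could be named, and those that bear on a count are given. One result on the RNA polymerase III list is not reported here. DDX51, POLR2L, MYC and TBP were named after their values were seen. Of the 254 genes on these lists, 239 were matched by symbol, 12 by an older symbol, 2 by accession and 1 by synonym. The scripts were tested on simulated data. Alternatives to the scaling, pseudocount, filter and membership were run 1 at a time. The tools were matplotlib 3.10.9, scipy 1.17.1, pandas 2.3.3, numpy 2.4.6 and Python 3.11.15.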

Additional observations from a re-analysis of the deposited data

How the results depend on the processing

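With 1 library per treatment, depth and counting intervals say nothing of variation between cultures. No paired analysis was possible because each treatment has a single library. The count of genes at least 2-fold higher, 1 with TMM, was 0 with library totals and with a pseudocount of 5 CPM, and 2 (TAF1A added) with median-of-ratios scaling and with a pseudocount of 0.1 CPM. The count at least 2-fold lower was 1, UBTF, under every alternative run. At 1.5-fold, 5 genes were higher and 1 lower with TMM, 2 and 3 with library totals, and 3 and 3 by the authors' deposited ratio. Among all genes that passed, the shares higher and lower were 17.4% and 12.5%, 8.34% and 26.0%, and 14.9% and 16.4%, in that order. The median log2 ratio of 0.23 was -0.0894 with library totals, 0.16 in the authors' deposited table and between 0.21 and 0.25 otherwise, 0.23 for the 29 assembly factors alone included. Between 30 and 31 of the 40 genes lay above the all-gene median under the 7 alternatives to the scaling, ratio, pseudocount and filter. This count could hardly move. A change of scaling adds nearly the same amount to every log2 ratio, and the filter enters neither this count nor the medians. Of 280 single values under these 7 alternatives, 271 kept their side of 1.5-fold, 5 fell short of it and 4 passed it. Removing or raising the filter leaves every ratio as it was, so those settings could hardly move this tally. All the moves came with library totals or the authors' deposited ratio. With library totals TAF1D, DKC1 and DDX21 fell short, and RRS1 and RRP1B passed. The sign of the log2 ratio turned for 20 of the 40 genes with library totals, 3 by the authors' deposited ratio and 1 with median-of-ratios scaling, none of them among the 6 past 1.5-fold.

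Among the 9543 genes that passed the filter, 689 were higher and 469 lower at 2-fold, and 1660 and 1195 at 1.5-fold. With library totals these were 371, 994, 803 and 2504 of 9623 genes. Lower genes at 2-fold numbered 722 in the authors' deposited table and 198 with a pseudocount of 5 CPM, each of 9543. With a 20 CPM filter there were 179 of 6559. At 1.5-fold there were 794 lower with that pseudocount (8.32% of 9543), 512 with that filter (7.81% of 6559) and 1957 without a filter (9.27% of 21115).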
